A study of Homo sapiens with 9 samples.

Results

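The genes described here encode the main proteases that cut the extracellular matrix at the cell surface, together with the inhibitors that hold some of them in check. They were taken by symbol, as every gene named MMP, TIMP or ADAMTS with a number, plus the urokinase gene PLAU, its receptor gene PLAUR and the tissue plasminogen activator gene PLAT. The rule found 50 genes among the 41857 gene IDs of the files, namely 24 MMP, 4 TIMP and 19 ADAMTS genes and the 3 genes of plasminogen activation. Polyadenylated RNA was sequenced in 9 libraries from MCF10A, an immortalized breast epithelial line of human origin that does not form tumours. The cells carried vector only, human deltaNp63alpha or deltaNp63beta, and each group had 3 biological replicates. The isoforms are forms of the transcription factor p63 without its longer N-terminal part, and their C-terminal ends are not the same. Doxycycline was given in every group: the 9 cultures, those with vector too, were kept for 24 h in 500 ng/mL doxycycline, in medium with horse serum, epidermal growth factor, hydrocortisone, cholera toxin and insulin, and all carry the genotype label WT. Cells without doxycycline were not analysed here, and whether a line was 1 clone is not given in the sources used here.

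Matrix metalloproteinases (MMPs) are zinc proteases made as inactive precursors, and their activity depends on removal of a propeptide. Most are secreted, and the membrane-type MMPs stay on the cell surface, where MMP14 activates proMMP2 together with the inhibitor TIMP2. TIMPs bind the active site of MMPs and of some ADAM and ADAMTS proteases, and the ADAMTS family cuts proteoglycans, procollagens and other matrix proteins. Urokinase and tissue plasminogen activator turn plasminogen into plasmin, which cuts fibrin and activates several proMMPs. In stratified and mammary epithelium these enzymes are best known from wound closure, gland remodelling and invasion.

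Libraries summed to between 22.5 and 23.2 M (mega) normalized estimated counts, and the step between their lowest values puts their depth at about 20.3 to 24.4 M estimated fragments. TP63, the gene of the isoforms, was at 302 ± 38.1 (SD, n = 3) with vector, where no p63 transgene was carried. It changed by 4.31 ± 0.21 on the log2 scale with deltaNp63alpha and by 4.09 ± 0.21 with deltaNp63beta. Values are per gene, so the cells' own TP63 and the transgene are not separated. The list of markers for basal epithelium holds CDH1 and EPCAM, which are not particular to basal cells. Its 7 markers, KRT5 and KRT14 among them, were all above the filter on low values. So were 5 of the 6 luminal markers, and passing the filter does not set basal from luminal cells. The summed level of the basal list was 95598 to 103067 with vector, 171068 to 180206 with deltaNp63alpha and 287399 to 300619 with deltaNp63beta. KRT5 and KRT17 made up most of the sum with deltaNp63beta, with means of 146977 and 74504. Of 8 fibroblast markers 4 passed the filter, and the summed level was 1455 to 1499, 526 to 667 and 512 to 555 in the same order, with DCN, a proteoglycan gene, making up most of it in vector cells. The 6 luminal markers summed to 12707 to 12805, 11936 to 12847 and 14109 to 15380. KRT8 and KRT18 made up most of this sum, with vector means of 5290 and 7057. The luminal markers did not move together. KRT19 changed by -1.52 ± 0.46 with deltaNp63alpha (limma adjusted p = 0.0484) and by -2.04 ± 0.46 with deltaNp63beta (adjusted p = 0.00429). KRT8 fell with deltaNp63alpha (-0.30 ± 0.05), and KRT18 rose with deltaNp63beta (0.33 ± 0.04). Of 6 endothelial and 7 leukocyte markers 3 and 5 passed. Their sums were 204 to 276 and 1871 to 2087 with vector, 171 to 174 and 1281 to 1641 with deltaNp63alpha, and 110.3 to 143 and 1241 to 1369 with deltaNp63beta. The leukocyte markers did not move together with deltaNp63beta: CD68, ITGB2 and CSF1R fell, and CD14 (2.77 ± 0.41) and LAPTM5 (0.96 ± 0.16) rose. CD68 and ITGB2 were at 1045 to 1161 and 518 to 569.6 with vector, and PTPRC, which defines leukocytes, and CDH5, which defines endothelium, never exceeded 4.22 and 1.84. These sums move with the groups, and their part in the results below was not tested. In bulk RNA, fewer cells of a type and less RNA per cell cannot be told apart.

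A gene was tested if its value was at least 10 in at least 3 libraries, and it was called at an adjusted p under 0.05. Changes are log2 fold changes ± SE from limma on log2(value + 1), which understates changes of genes with low values. Of the 50 members 24 were tested. None of the 24 passed the filter through libraries of 1 group only, and ADAMTS4, MMP9, MMP13, MMP24 and MMP25 were under 10 in at least 1 library. With deltaNp63alpha 1 member rose and 5 fell (3 without vector replicate 3), or 25% of those tested, where 14.5% of all 15108 genes tested were called (8.13% higher and 6.37% lower). With deltaNp63beta 6 rose and 9 fell, or 62.5%, beside 41.3% of all genes (21.8% higher and 19.5% lower). Between deltaNp63beta and deltaNp63alpha 8 were higher and 7 lower, again 62.5%, beside 32.9% of all genes (17.4% higher and 15.5% lower). The median change of the tested members was -0.17, -0.15 and 0.15 in the 3 comparisons, and that of all genes was -0.01, 0.00 and 0.00. The comparisons with vector share the vector libraries. In all, 17 members were called in at least 1 comparison, 15 of them between the isoforms.

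**Figure D1:**
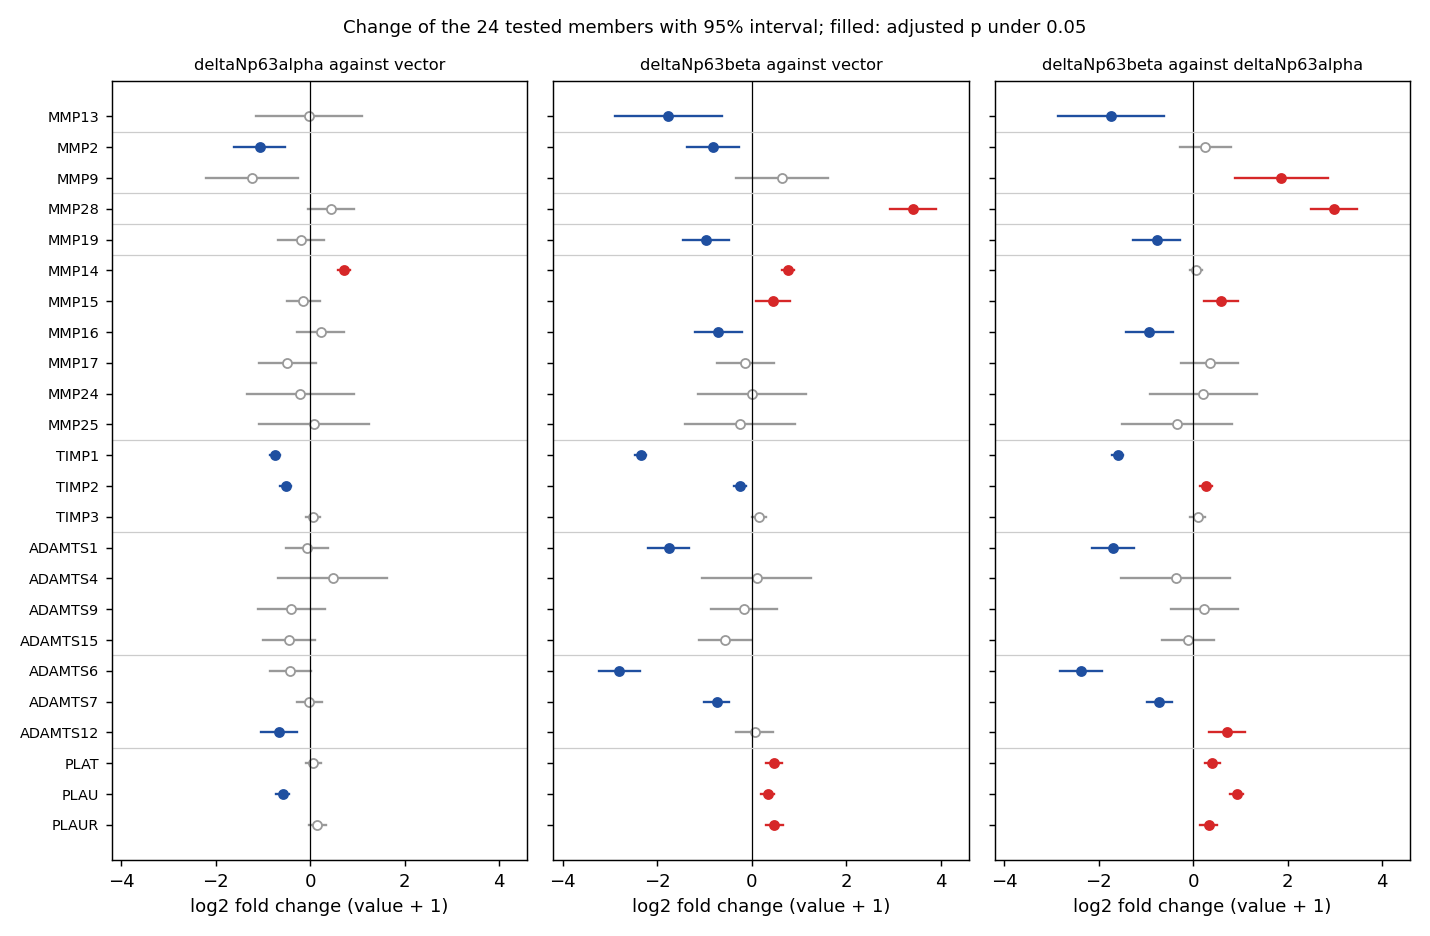
Log2 fold change (horizontal axis, value + 1) of the 24 tested members in each of the 3 comparisons, grouped by role from the collagenase MMP13 at the top to the plasminogen genes at the bottom; bars are 95% intervals and filled points have an adjusted p under 0.05 (red higher, blue lower). MMP28 lies farthest to the right with deltaNp63beta at 3.42 and ADAMTS6 farthest to the left at -2.80, and PLAU is the member with a filled point on both sides of 0 in the comparisons with vector.

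Of the inhibitor genes TIMP1 and TIMP2 fell with both isoforms, and TIMP1 had the highest values of all members. TIMP1, which inhibits most secreted MMPs, was at 37282, 36783 and 36434 in the vector libraries, at 20833, 22511 and 22443 with deltaNp63alpha and at 7374, 7658 and 6678 with deltaNp63beta. The 3 groups did not overlap, with vector highest and deltaNp63beta lowest. The change was -0.75 ± 0.05 with deltaNp63alpha (adjusted p = 2.41e-06), -2.35 ± 0.05 with deltaNp63beta (adjusted p = 6.86e-11) and -1.60 ± 0.05 between the isoforms (adjusted p = 4.24e-09). The mean with deltaNp63beta was 5.09-fold lower than with vector. TIMP1 (ENSG00000102265, GRCh38 chromosome X, 47582313 to 47586789, plus strand) lies within SYN1, which runs on the other strand.

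TIMP2, which inhibits MMPs and also takes part in the activation of proMMP2, was at 4827, 4562 and 4379.8 with vector, at 3207, 3349 and 3054 with deltaNp63alpha and at 3645, 4044 and 3910.4 with deltaNp63beta. Here deltaNp63alpha was the lowest of 3 groups that did not overlap. The changes were -0.52 ± 0.06 (adjusted p = 7.57e-05) and -0.25 ± 0.06 (adjusted p = 0.00403), and deltaNp63beta was higher than deltaNp63alpha by 0.27 ± 0.06 (adjusted p = 0.00315). TIMP3, an inhibitor that binds to the matrix and also acts on ADAM17 and ADAMTS proteases, was not called in any comparison. Its values lay between 2295 and 2873 in all 9 libraries, with a change of 0.07 (95% interval -0.08 to 0.22) with deltaNp63alpha and 0.16 (0.01 to 0.31) with deltaNp63beta, the latter called without deltaNp63beta replicate 1 (adjusted p = 0.0255). TIMP4 was under the filter, with 10.2 in 1 deltaNp63alpha library as its highest value. So the 3 TIMP genes that were tested differed in pattern: TIMP1 was lowest with deltaNp63beta, TIMP2 was lowest with deltaNp63alpha, and TIMP3 was not called.

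The membrane-type MMPs were all measurable, and MMP14 stood out by level. MMP14, the collagenase of the cell surface, was at 4066, 4009.6 and 3996 with vector, at 6089.9, 7177 and 6550.2 with deltaNp63alpha and at 6489, 7119 and 7082 with deltaNp63beta. Both isoform groups lay above every vector library and overlapped each other. MMP14 (ENSG00000157227, chromosome 14, 22836557 to 22849027, plus strand) rose by 0.71 ± 0.06 with deltaNp63alpha (adjusted p = 1.14e-05) and by 0.78 ± 0.06 with deltaNp63beta (adjusted p = 1.43e-06). The difference between the isoforms was 0.06, with a 95% interval of -0.07 to 0.19. It was the member that rose with deltaNp63alpha.

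MMP15, another transmembrane MMP, was at 203, 194 and 184 with vector, 217, 175 and 142 with deltaNp63alpha and 229.9, 260.5 and 306 with deltaNp63beta. Its rise of 0.44 ± 0.16 with deltaNp63beta was close to the threshold (adjusted p = 0.0478) and was not called without vector replicate 1, 2 or 3, deltaNp63alpha replicate 2 or deltaNp63beta replicate 2 or 3, nor with equal totals, no filter, no trend or a replicate block (adjusted p between 0.0619 and 0.163). The difference from deltaNp63alpha was 0.59 ± 0.16 (adjusted p = 0.0171), a call lost on leaving out deltaNp63alpha replicate 3 (adjusted p = 0.0683) or deltaNp63beta replicate 3 (adjusted p = 0.0658). MMP16 moved the other way, from 87.0, 75.4 and 97.5 with vector and 130.2, 99.7 and 78.0 with deltaNp63alpha to 45.3, 63.3 and 50.02 with deltaNp63beta. Against vector it changed by -0.71 ± 0.23 (adjusted p = 0.0264) and against deltaNp63alpha by -0.93 ± 0.23 (adjusted p = 0.00863). The first of these calls was lost without vector replicate 1 or 3 or deltaNp63beta replicate 1 or 3 (adjusted p between 0.0624 and 0.0880). MMP17 and MMP25, which are held to the membrane by a lipid anchor, and MMP24 were not called in any comparison. MMP17 ranged from 38.6 to 90.5 over the 9 libraries, MMP24 from 8.31 to 29.5 and MMP25 from 7.73 to 45.6, with both extremes of MMP25 among the deltaNp63alpha libraries. At these levels the 95% interval of MMP25 with deltaNp63alpha ran from -1.07 to 1.25.

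MMP28, also known as epilysin and found in keratinocytes, had the largest rise among the members. It was at 55.5, 44.0 and 47.9 with vector, at 75.7, 48.9 and 81.0 with deltaNp63alpha and at 622, 591 and 413 with deltaNp63beta. The deltaNp63beta libraries lay far above all others, while vector and deltaNp63alpha overlapped. MMP28 (ENSG00000271447, chromosome 17, 35756249 to 35795707, minus strand) rose by 3.42 ± 0.22 with deltaNp63beta (adjusted p = 3.97e-07), an 11.03-fold higher mean, and differed by 2.98 ± 0.22 between the isoforms (adjusted p = 2.52e-06). With deltaNp63alpha the change was 0.44 ± 0.22 (adjusted p = 0.228). The gene overlaps AC006237.1 on its own strand and C17orf50 and TAF15 on the other, and the labels do not say whether the counting used strand. The other secreted MMPs that furin can activate, MMP11 and MMP21, stayed under the filter with highest values of 12.2 and 3.01.

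The gelatinases, which cut denatured collagen and type IV collagen, had low levels and unlike patterns. MMP2 was at 205, 178 and 221 with vector, at 111, 117 and 65.5 with deltaNp63alpha and at 90.1, 106 and 152 with deltaNp63beta. Every isoform library was below every vector library, and the isoform groups overlapped. MMP2 fell by 1.07 on the log2 scale with deltaNp63alpha (SE 0.25, adjusted p = 0.0132) and by 0.82 with deltaNp63beta (SE 0.25, adjusted p = 0.0199), and the isoforms differed by 0.25 (95% interval -0.29 to 0.79). The first call was lost without vector replicate 3 (adjusted p = 0.0515). The second was lost without vector replicate 1 or 3 or deltaNp63beta replicate 1 or 2 (adjusted p between 0.0522 and 0.0721). Of the 4 fibroblast markers tested 1, DCN, fell in the same comparisons, by 1.79 and 2.87 on the log2 scale (SE 0.11 for both), and 1, COL1A1, rose with deltaNp63beta (0.52 ± 0.17, adjusted p = 0.0286). PDGFRB and LUM were not called. All libraries are of MCF10A, an epithelial line, and the part of these genes in the change of MMP2 was not tested.

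MMP9, the gelatinase of keratinocytes and leukocytes, was at 17.5, 12.2 and 10.4 with vector, at 6.92, 5.68 and 3.06 with deltaNp63alpha and at 16.7, 20.5 and 26.5 with deltaNp63beta. The deltaNp63alpha libraries lay below all others, and those of vector and deltaNp63beta overlapped. MMP9 differed between the isoforms by 1.87 ± 0.44 (adjusted p = 0.00762), whereas neither comparison with vector was called, at -1.23 ± 0.44 (adjusted p = 0.0953, and 0.0430 with no trend) and 0.64 ± 0.44 (adjusted p = 0.281).

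Most genes of the MMP cluster on chromosome 11 were close to silent. The cluster holds 9 members, MMP7, MMP20, MMP27, MMP8, MMP10, MMP1, MMP3, MMP12 and MMP13, within 435 kb (GRCh38, 102520508 to 102955734), among them the interstitial collagenase gene MMP1, the stromelysin genes MMP3 and MMP10 and the matrilysin gene MMP7. MMP8, MMP12, MMP20 and MMP27 were listed at 0 in all 9 libraries, and none of the cluster genes besides MMP13 exceeded 4.90 in any library. MMP13, a collagenase, was the cluster gene that passed the filter. It was at 11.1, 18.2 and 17.04 with vector, at 16.1, 16.3 and 12.3 with deltaNp63alpha and at 7.63, 1.77 and 3.45 with deltaNp63beta, where every library was below those of the other groups. It changed by -1.77 ± 0.51 with deltaNp63beta (adjusted p = 0.0169) and by -1.74 ± 0.51 between the isoforms (adjusted p = 0.0229). These calls rest on few fragments. The first was lost without vector replicate 2 or 3 or deltaNp63beta replicate 2 (adjusted p between 0.0561 and 0.0604). The other was lost without deltaNp63alpha replicate 1 or 2 or deltaNp63beta replicate 2 or 3, and with only the groups compared (adjusted p between 0.0517 and 0.0730).

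Promoter sequences from RefSeq (GRCh38.p14) were found for 29 of the 50 members, in 31 entries, and the 250 bases before the start were searched on both strands. The other members, MMP1, MMP3, MMP9 and MMP13 among them, had no entry, so their promoters were not searched. Promoters of MMP genes are known for sites of AP-1, the dimer of FOS and JUN proteins, so the loose AP-1 site TGANTCA was searched first. It was found in 5 member entries and in 6.57% of all 35116 entries. The 5 are shown because 3 of them belong to cluster genes that were near 0 and the others to members that were called. Each line gives 27 bases, 5′ to 3′ on the gene's strand, with the AP-1 match in capitals.
MMP7: aacactcaaaTGAGTCAcctatttcca
MMP10: aacacatgcaTGAATCAtactgttggt
MMP20: gtttgagacaTGAATCAtccttgctcg
ADAMTS12: cactgtcagcTGAATCActcccctttt
PLAUR: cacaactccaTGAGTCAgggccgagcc
The matches begin 67 bases before the start in MMP7 (chr11:102530798-102530824, minus strand) and in MMP10 (chr11:102780679-102780705, minus strand), and 112 before it in MMP20 (chr11:102625428-102625454, minus strand). They begin 84 bases before the start in ADAMTS12 (chr5:33892058-33892084, minus strand) and 186 before it in PLAUR (chr19:43670339-43670365, minus strand). A TATA box, TATAAA, was found in 7 member entries, MMP7, MMP10 and MMP20 among them, and in 10.7% of all entries. So these promoters carry both sets of letters, while their genes were at 2.92 or less in every library. A match is a run of letters in this window and says nothing about binding.

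MMP19, an MMP of skin and other tissues, was at 82.3, 66.3 and 78.8 with vector, at 69.3, 58.4 and 70.2 with deltaNp63alpha and at 38.9, 29.7 and 47.2 with deltaNp63beta. The deltaNp63beta libraries were below all others. It changed by -0.97 ± 0.22 with deltaNp63beta (adjusted p = 0.00449) and by -0.78 ± 0.22 between the isoforms (adjusted p = 0.0198), the latter lost on leaving out deltaNp63alpha replicate 1 or 3 or deltaNp63beta replicate 2 (adjusted p between 0.0581 and 0.0713). MMP26 was listed at 0 in every library. MMP23B and its near-identical copy MMP23A, a pseudogene in GENCODE, had highest values of 6.98 and 5.55, and fragments could be divided between them.

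Among the ADAMTS genes 7 of 19 were tested. By limma none rose against vector, also at an unadjusted p under 0.05 (0 genes with either isoform), while 1 fell with deltaNp63alpha and 3 fell with deltaNp63beta. The share called against vector, 14.3% and 42.9%, was close to that of all genes tested, 14.5% and 41.3%. Between the isoforms 1 was higher and 3 were lower, or 57.1%, beside 32.9% of all genes. The largest fall was in ADAMTS6, an ADAMTS known from heart development and from cutting fibrillin microfibril components. It was at 298, 402 and 449 with vector, at 225, 347 and 284 with deltaNp63alpha and at 62.9, 48.0 and 50.1 with deltaNp63beta. The deltaNp63beta values were far below the rest, and the other groups overlapped. ADAMTS6 (ENSG00000049192, chromosome 5, 65148736 to 65481920, minus strand) changed by -2.80 ± 0.20 with deltaNp63beta (adjusted p = 7.79e-07), a 7.14-fold lower mean, and by -2.38 ± 0.20 between the isoforms (adjusted p = 5.48e-06). With deltaNp63alpha the change was -0.43 (95% interval -0.86 to 0.01).

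ADAMTS1, which cuts the proteoglycans aggrecan and versican, was at 155, 186 and 189.7 with vector, at 157, 161 and 187 with deltaNp63alpha and at 37.8, 54.8 and 65.1 with deltaNp63beta. Vector and deltaNp63alpha covered the same range and deltaNp63beta lay below it. The change was -1.76 ± 0.20 with deltaNp63beta (adjusted p = 3.58e-05) and -1.69 ± 0.20 between the isoforms (adjusted p = 8.32e-05), and -0.07 (95% interval -0.51 to 0.37) with deltaNp63alpha. ADAMTS7, which cuts the cartilage protein COMP, showed the same order at a smaller size. It was at 346, 309.9 and 292 with vector, 330.1, 276 and 332 with deltaNp63alpha and 197, 170.2 and 200.1 with deltaNp63beta (-0.74 ± 0.12, adjusted p = 0.000512, with -0.72 ± 0.12 between the isoforms, adjusted p = 0.000875).

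ADAMTS12, a relative of ADAMTS7, showed another order. It was at 94.9, 102 and 88.5 with vector, at 63.1, 60.1 and 56.6 with deltaNp63alpha and at 102, 115 and 83.0 with deltaNp63beta, so that deltaNp63alpha alone was low. It changed by -0.66 ± 0.17 with deltaNp63alpha (adjusted p = 0.0277), and deltaNp63beta was higher than deltaNp63alpha by 0.72 ± 0.17 (adjusted p = 0.00873). The call against vector was lost on leaving out any 1 vector or deltaNp63alpha library and with no filter (adjusted p between 0.0513 and 0.0911), while the change stayed between -0.71 and -0.61. ADAMTS4, ADAMTS9 and ADAMTS15, all proteoglycan-cutting enzymes, were not called in any comparison, and their values lay between 4.56 and 17.1, 21.7 and 49.8, and 26.5 and 60.9. ADAMTS15 with deltaNp63beta changed by -0.56 ± 0.25 (adjusted p = 0.0934, and 0.0386 with no trend). The 12 ADAMTS genes under the filter included ADAMTS2, ADAMTS3 and ADAMTS14, which trim procollagens, with highest values of 16.7, 16.7 and 12.6. ADAMTS16 reached 17.9, the highest value of any member not tested, and ADAMTS20 was listed at 0 throughout. The others under the filter were ADAMTS5, ADAMTS8, ADAMTS10, ADAMTS13, ADAMTS17, ADAMTS18 and ADAMTS19, whose highest values ran from 1.02 for ADAMTS8 to 14.3 for ADAMTS17.

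**Figure D2:**
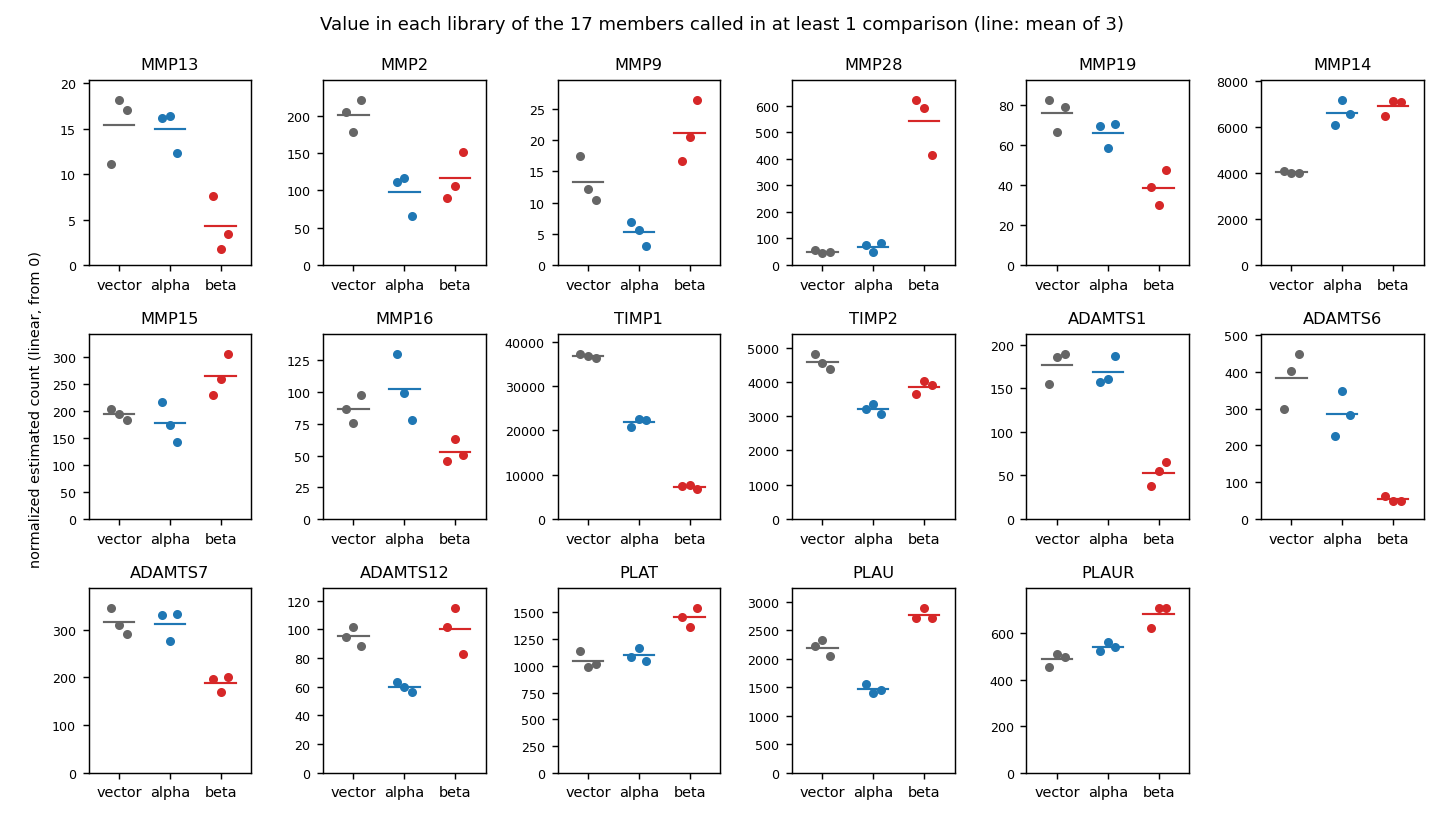
Normalized estimated count (vertical axis, linear from 0, a scale of its own in each panel) in every library of the 17 members called in at least 1 comparison, by group (vector grey, deltaNp63alpha blue, deltaNp63beta red), with points for libraries and lines for the means of 3. TIMP1 steps down from vector to deltaNp63alpha to deltaNp63beta, MMP28, ADAMTS1 and ADAMTS6 set deltaNp63beta apart from the other groups, and PLAU, ADAMTS12 and MMP9 have deltaNp63alpha lowest.

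The promoters of TIMP1, ADAMTS6 and MMP14 are shown as those of a gene lowered by both isoforms, of one with a large fall with deltaNp63beta and of one raised by both. Only the part of the 250 bases that holds no annotated exon is printed, 5′ to 3′ on the gene's strand. Capitals mark matches to a loose p53 family element, which is the letters CNNG given again after a gap of 6 bases, searched on both strands, and neighbouring matches can overlap.
TIMP1: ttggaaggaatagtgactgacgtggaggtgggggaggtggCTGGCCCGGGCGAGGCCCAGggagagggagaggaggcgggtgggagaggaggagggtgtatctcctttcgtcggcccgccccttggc
ADAMTS6: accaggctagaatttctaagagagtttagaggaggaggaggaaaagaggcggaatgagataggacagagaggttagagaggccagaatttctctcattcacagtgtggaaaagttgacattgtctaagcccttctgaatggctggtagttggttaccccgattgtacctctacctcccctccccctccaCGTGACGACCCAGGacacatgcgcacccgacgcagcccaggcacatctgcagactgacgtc
MMP14: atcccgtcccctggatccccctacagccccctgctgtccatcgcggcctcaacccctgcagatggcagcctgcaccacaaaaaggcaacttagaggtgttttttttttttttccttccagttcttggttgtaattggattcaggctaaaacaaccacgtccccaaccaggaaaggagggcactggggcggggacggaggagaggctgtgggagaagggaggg
They lie at chrX:47582186-47582312 on the plus strand, chr5:65481921-65482170 on the minus strand and chr14:22836335-22836556 on the plus strand. TIMP1 holds 2 overlapping matches, ADAMTS6 holds 1 and MMP14 none. The loose element was in 26 of the 31 member entries and in 68.6% of all entries, so its presence does not set the members apart. None of these 3 held the AP-1 letters.

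The genes of plasminogen activation were all higher with deltaNp63beta than in the other groups. PLAU, which encodes urokinase, was at 2217, 2329 and 2048 with vector, at 1551, 1409 and 1446 with deltaNp63alpha and at 2716, 2896 and 2713 with deltaNp63beta. The 3 groups did not overlap, and vector lay between the isoforms. PLAU (ENSG00000122861, chromosome 10, 73909177 to 73917497, plus strand) changed by -0.58 ± 0.06 with deltaNp63alpha (adjusted p = 6.62e-05) and by 0.34 ± 0.06 with deltaNp63beta (adjusted p = 0.00101). The isoforms differed by 0.92 ± 0.06 (adjusted p = 9.68e-07), a 1.89-fold difference of the means. It was the member called in opposite directions with the isoforms. The span of C10orf55 overlaps that of PLAU on the other strand. Whether their exons share sequence was not examined, and without strand the reads of a shared stretch could not be told apart.

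PLAUR, the receptor that holds urokinase at the cell surface, was at 454, 511 and 498 with vector, at 522, 562 and 541 with deltaNp63alpha and at 622, 707 and 708 with deltaNp63beta. The groups lay in that order without overlap, and the step to deltaNp63alpha was not called (0.15, 95% interval -0.03 to 0.33). PLAUR was higher by 0.48 ± 0.08 with deltaNp63beta than with vector (adjusted p = 0.000776) and by 0.32 ± 0.08 than with deltaNp63alpha (adjusted p = 0.0110). PLAT, the tissue plasminogen activator, was at 1135, 991 and 1014 with vector, 1079, 1163 and 1046 with deltaNp63alpha and 1458, 1364 and 1542 with deltaNp63beta. It was higher by 0.48 ± 0.07 with deltaNp63beta (adjusted p = 0.000353) and by 0.41 ± 0.07 between the isoforms (adjusted p = 0.00145), with 0.07 (95% interval -0.09 to 0.23) for deltaNp63alpha against vector.

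Among 14 tested partners of plasminogen activation, 4 rose and 3 fell with deltaNp63alpha and 2 rose and 5 fell with deltaNp63beta. The share called was 50% with either isoform, beside 14.5% of all genes with deltaNp63alpha and 41.3% with deltaNp63beta. SERPINE2, or protease nexin 1, an inhibitor of urokinase and other serine proteases, was at 1953, 2133 and 1897 with vector, at 1188, 1106 and 1079 with deltaNp63alpha and at 367, 325 and 435 with deltaNp63beta. The 3 groups did not overlap, and SERPINE2 fell with both isoforms, by 0.83 and 2.41 on the log2 scale (SE 0.10 for both). SERPINB2, or PAI-2, another inhibitor of urokinase, went the other way, from 9.15, 13.2 and 16.5 with vector through 20.6, 32.0 and 32.5 with deltaNp63alpha to 367, 308 and 266 with deltaNp63beta. With deltaNp63alpha the partners of smallest adjusted p were ANXA2, a plasminogen receptor subunit (0.27 ± 0.03), SERPINE2 and the collagen receptor gene MRC2 (-0.79 ± 0.11).

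**Figure D3:**
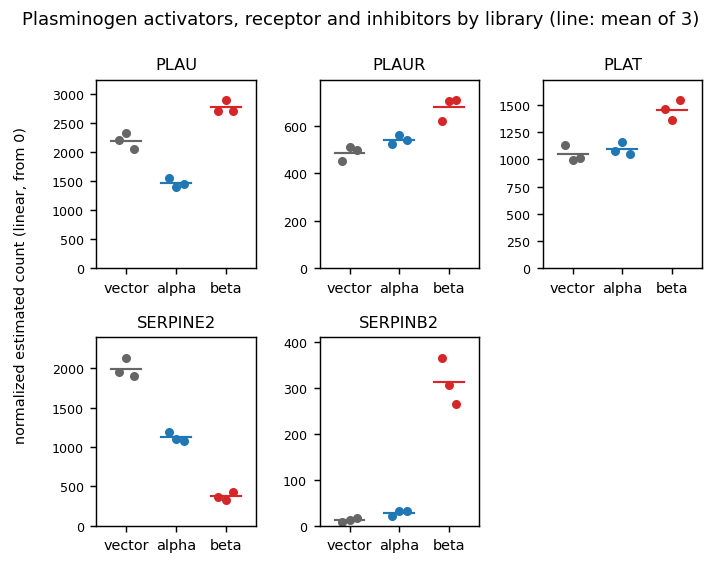
Normalized estimated count (vertical axis, linear from 0) in each library of the activator genes PLAU and PLAT, the receptor gene PLAUR and the inhibitor genes SERPINE2 and SERPINB2, by group, with lines for means of 3. The activators and the receptor are highest in the deltaNp63beta libraries, SERPINE2 is low there at 325 to 435, and SERPINB2 is high there at 266 to 367.

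The other partners of the members, in lists written with earlier results of these data known, moved both ways. Of all genes tested 14.5% were called with deltaNp63alpha and 41.3% with deltaNp63beta. In the same order the shares were 14.3% and 42.9% of the MMP activators and further inhibitors. They were 44.4% and 66.7% of the ADAM genes and 20% and 40% of the ADAMTS-like genes. Of 14 tested MMP activators and further inhibitors 2 rose and none fell with deltaNp63alpha (by limma 1 was lower at an unadjusted p under 0.05), and 4 rose and 2 fell with deltaNp63beta. CD44, a surface receptor that holds MMP9, rose by 0.39 ± 0.05 with deltaNp63alpha and by 0.42 ± 0.05 with deltaNp63beta. TFPI2, an inhibitor of plasmin, rose by 2.46 ± 0.48 with deltaNp63alpha. Its values were low, at 4.18 to 4.75 in the vector libraries and 22.7 to 44.2 with deltaNp63alpha. Those that fell with deltaNp63beta were THBS1, a matrix protein that binds MMPs (-1.23 ± 0.05), and the proteoglycan gene SPOCK1 (-1.71 ± 0.14). Of 9 ADAM genes 2 rose and 2 fell with deltaNp63alpha and 3 rose and 3 fell with deltaNp63beta, with ADAM12 at -1.14 ± 0.11 and -1.97 ± 0.11 and ADAM8 at 1.07 ± 0.30 and 2.95 ± 0.30. Of 5 ADAMTS-like genes, which lack the protease domain, 1 fell with deltaNp63alpha and 2 with deltaNp63beta, and by limma none rose against vector (0 at an unadjusted p under 0.05). ADAMTSL4 fell with deltaNp63alpha (-0.87 ± 0.10) and was at -0.01 ± 0.10 with deltaNp63beta, with a difference of 0.86 ± 0.10 between the isoforms (adjusted p = 4.92e-05).

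Of 15 other matrix proteases 3 rose and 4 fell with deltaNp63alpha and 6 rose and 4 fell with deltaNp63beta. The share called was 46.7% and 66.7%, beside 14.5% and 41.3% of all genes. For the AP-1, ETS and RUNX factors below it was 37.5% and 68.8%, and for the substrates 55.6% and 83.3%. ST14, which encodes the membrane protease matriptase, rose by 1.04 ± 0.06 and 2.34 ± 0.06, and the lysosomal protease genes CTSD and CTSB changed by 1.11 ± 0.05 and -0.61 ± 0.04 with deltaNp63beta. Of 16 AP-1, ETS and RUNX factors, families that bind MMP and PLAU promoters, 5 rose and 1 fell with deltaNp63alpha and 4 rose and 7 fell with deltaNp63beta. FOSL1 rose by 0.53 ± 0.05 with deltaNp63alpha and fell by 1.11 (SE 0.05) with deltaNp63beta, ETS2 rose with both (0.63 ± 0.07 and 1.80 ± 0.07), and ETS1 fell by 0.99 (SE 0.07) with deltaNp63beta. Of 18 substrates 5 rose and 5 fell with deltaNp63alpha and 7 rose and 8 fell with deltaNp63beta, with fibronectin (FN1) at -1.15 ± 0.04 and -3.92 ± 0.04. The median changes of these lists lay between -0.47 and 0.11 with deltaNp63alpha and, the plasminogen partners at -0.69 aside, between -0.47 and 0.03 with deltaNp63beta.

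Per kb of exon, TIMP1 had the highest level of the 24 tested members in every group, at 23902 normalized estimated counts per kb with vector and 4696 with deltaNp63beta. MMP14 came next in every group and rose from 901 to 1545 per kb, and TIMP2 went from 815 to 686. PLAU had rank 4 with vector (745 per kb), rank 5 with deltaNp63alpha and rank 3 with deltaNp63beta (941 per kb). MMP28 moved up in this order, from rank 14 with vector (17.2 per kb) and rank 11 with deltaNp63alpha to rank 7 with deltaNp63beta (189.7 per kb), and ADAMTS6 moved down from rank 8 with vector (44.7 per kb) to rank 17 with deltaNp63beta (6.26 per kb). These levels use the union of the annotated exons, so that genes with long unused exons appear lower than their main transcript would.

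**Figure D4:**
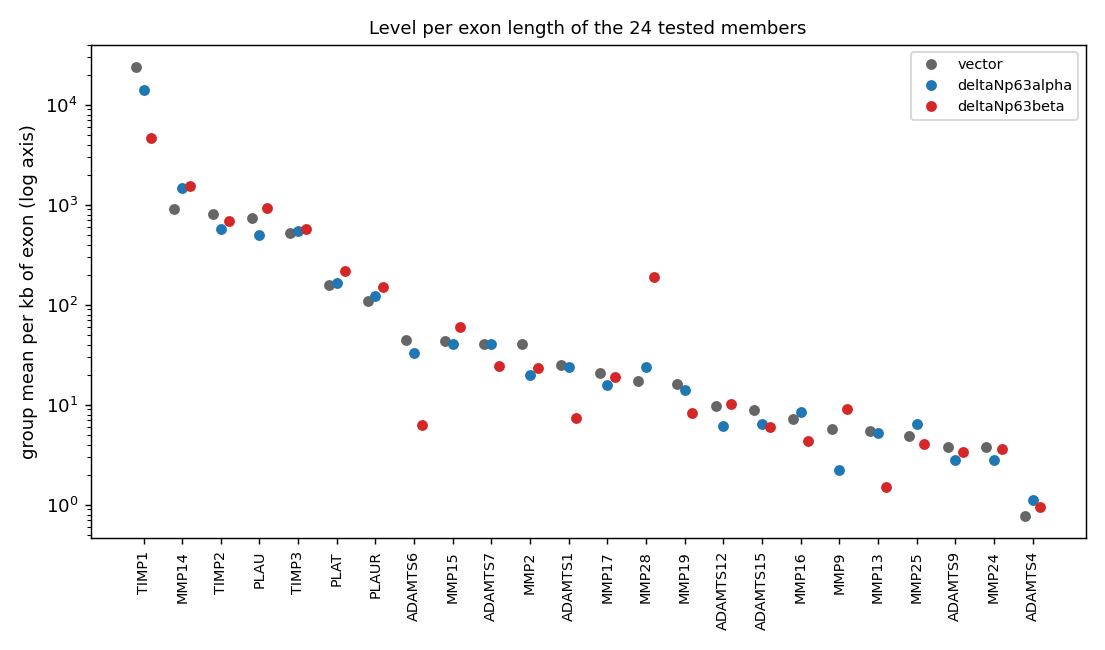
Group mean per kb of annotated exon (vertical axis, log scale) of the 24 tested members, ordered by the vector value, for vector (grey), deltaNp63alpha (blue) and deltaNp63beta (red); each point is a mean of 3 libraries. TIMP1 leads in all groups, and MMP28 stands out above its neighbours with deltaNp63beta at 189.7 per kb.

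The calls fell into a small number of patterns across the isoforms. MMP14, MMP2, TIMP1 and TIMP2 were called in the same direction with both isoforms, and of these TIMP1 and TIMP2 also differed between the isoforms, in opposite directions. PLAU was called in opposite directions. Another 10 members, MMP13, MMP15, MMP16, MMP19, MMP28, ADAMTS1, ADAMTS6, ADAMTS7, PLAT and PLAUR, were called with deltaNp63beta and not with deltaNp63alpha, and all 10 also passed the test of the difference between the isoforms. ADAMTS12 was called with deltaNp63alpha and not with deltaNp63beta, and MMP9 between the isoforms alone. Over all genes these patterns were not counted. Of all genes tested 41.3% were called with deltaNp63beta and 14.5% with deltaNp63alpha, so the pattern counts are not read as particular to the members. The 7 tested members called nowhere were MMP17, MMP24, MMP25, TIMP3, ADAMTS4, ADAMTS9 and ADAMTS15. Of the 24 tested members 15 overlap a gene on the other strand and 6 a gene on the same strand. These overlaps are of whole gene spans, introns included, and shared exons were not counted. Values are less certain where the counting could not separate the genes.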

How the data were processed

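Poly(A) RNA of 9 MCF10A cultures was analysed in 3 groups of 3 from the labels' titles. The deposited values are a signal per gene, namely estimated counts after normalization, for which the authors used kallisto 0.46.2 and DESeq2 (version not given) on GRCh38, per the submitters' processing notes, which do not say which step produced them. Whole reads were not recovered: 59.9% to 63.5% of values up to 20 steps were whole within 0.1 step. A count test was therefore not used. Of 41857 gene IDs 36387 matched a symbol, and positions and exon lengths came from GENCODE release 29.

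All genes were fitted together with limma 3.58.1 in R 4.3.3 (trend and robust moderation, log2(value + 1), at least 10 in at least 3 libraries, 1 coefficient per group), with Benjamini-Hochberg adjustment over the 15108 genes tested. The fit was tested on simulated data. Values were handled in pandas 2.3.3 and numpy 2.4.6 (Python 3.11.15) and drawn with matplotlib 3.10.9. The members and gene lists were chosen with earlier results of these data known. Every member is accounted for, members past the threshold are given with values, and of each partner list genes are named from the 3 with the smallest adjusted p in a comparison, with the marker genes named chosen after their values were seen, and 1 partner gene is not reported here. Alternatives were median-of-ratios factors, equal totals, no filter or a value of at least 50, a pseudocount of 0.1, the 2 groups compared, a replicate block, no trend, and leaving out each library.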

Additional observations from a re-analysis of the deposited data

Results flagged for a closer look

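PLAU was picked out because its changes with the isoforms against the shared vector libraries were called in opposite directions and the difference between deltaNp63beta and deltaNp63alpha, 0.92 ± 0.06 on the log2 scale, was itself called (adjusted p = 9.68e-07). It was lower than vector in 3 of 3 deltaNp63alpha libraries and higher in 3 of 3 deltaNp63beta libraries. Groups of 3 are too small for a test of single outlying libraries.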

How the results depend on the processing

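Of the 36 calls of members 27 held in each of the 17 alternatives that tested the member, 9 of which left out a library, and none of the called results changed sign. The 9 calls that were lost in some alternative are named with their values beside the results above, and concern MMP2, MMP13, MMP15, MMP16, MMP19 and ADAMTS12. Leaving out 1 library, the members called lower with deltaNp63alpha numbered 3 to 5 and those called higher 1. With deltaNp63beta 5 to 7 were higher and 6 to 9 lower, and between the isoforms 7 to 8 were higher and 5 to 7 lower. Libraries were not paired by their replicate number, since residuals of same-numbered libraries correlated at -0.12 to 0.08 and those of others at -0.14 to 0.12. A replicate block gave 1 higher and 5 lower, 5 higher and 9 lower, and 8 higher and 7 lower in the 3 comparisons, ending the MMP15 call with deltaNp63beta (adjusted p = 0.0757). With equal totals all genes split into 2896 higher and 3277 lower with deltaNp63beta, against 3293 and 2953, and into 1100 and 1122 with deltaNp63alpha, against 1229 and 963. The causes were not tested.

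Changes of sign on the log2 scale were seen in results that were not called. MMP24 with deltaNp63beta was at -0.0251 with equal totals. Leaving out 1 library gave, with deltaNp63alpha, -0.578 to 0.278 for MMP24, -0.439 to 0.769 for MMP25, -0.233 to 0.0974 for MMP13, -0.295 to 0.00702 for MMP15 and -0.0711 to 0.0704 for ADAMTS7. With deltaNp63beta it gave -0.374 to 0.494 for MMP24, -0.0466 to 0.187 for ADAMTS12, -0.0222 to 0.508 for ADAMTS4 and -0.410 to 0.0323 for ADAMTS9. Between the isoforms it gave -0.165 to 0.481 for MMP24, -1.02 to 0.185 for MMP25, -0.253 to 0.0556 for ADAMTS15, -0.553 to 0.0301 for ADAMTS4 and -0.00926 to 0.417 for MMP2. Members with values near 10, such as MMP13 and MMP24, had wide SEs of 0.51 and 0.52, and the part of depth in this was not tested.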
